A study of Mus musculus with 8 samples.

Results

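Ion channel subunit genes were examined in cultured mouse embryonic fibroblasts that were control or labelled PUS10KO. The PUS10 protein turns uridine into pseudouridine in RNA, and the study is about tRNA fragments, retrotransposons and inflammation. There were 4 control libraries, whose genotype label is WT, and 4 PUS10KO libraries, numbered 1 to 4 in each genotype, from cells kept in DMEM with serum and antibiotics. The labels give no strain, passage or knockout method, and they do not say whether the libraries of a genotype came from separate cultures, lines or animals; p-values thus rest on the spread among these libraries alone, which may be technical. The genes were chosen by symbol: names that start with Kcn, Cacn, Scn and a digit, Trpc, Trpm, Trpv, Clcn, Clic, Ano and a digit, Itpr and a final digit, Ryr, Piezo, P2rx, Orai, or Stim and a digit. This rule found 75 of the 12211 genes counted. One of them, Trpc4ap, encodes a protein that binds a TRP channel and is itself no channel subunit, which leaves 74 genes of channel subunits and channel-like proteins. The GENCODE M21 annotation holds 201 protein-coding genes with such names, and the other 126 were not analysed here.

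Ion channels are membrane proteins that let ions pass down their gradients when voltage, a ligand, stretch or a signal inside the cell opens them. Pore subunits form the path for the ion, and accessory subunits change the traffic, voltage dependence or speed of the pore. Fibroblasts fire no action potentials, but their potassium channels set the membrane potential, and their calcium entry and release channels carry signals for growth, migration and contraction. Calcium stores in the endoplasmic reticulum empty through inositol trisphosphate and ryanodine receptors, and STIM sensors then open ORAI pores in the plasma membrane.

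Total counts ran from 17561114 to 24563499 per library. Values per library are given in the order of the numbers 1 to 4. Log2 changes are log2 fold changes of PUS10KO against control with their standard error (SE), and "with the block" means a fit that also has the library number as a term. Pus10, the targeted gene, had 40.9, 51.5, 40.1 and 51.8 CPM in control and 14.3, 15.2, 14.2 and 11.53 CPM in PUS10KO (CPM, read counts scaled to library size; log2 change -1.74 ± 0.15 SE, adjusted p = 0.000189). The 3 Y-linked genes read (Uty, Kdm5d and Eif2s3y) had at least 722 counts in each PUS10KO library and at most 2 in any control library, so sex chromosome content and genotype cannot be told apart. All 10 fibroblast markers listed were measured, and 4 of them fell, among them Thy1, from 21.8 ± 0.919 to 0.0237 ± 0.0281 CPM. Pdgfra, another of them, was higher in PUS10KO in all 4 numbers, with means of 49.8 ± 20.7 CPM in control and 101 ± 21.1 CPM in PUS10KO (log2 change 1.02 ± 0.30 SE, adjusted p = 0.0605, or 0.00247 with the block). The summed level of 7 smooth muscle markers was 6649 to 19811 CPM in control and 2604 to 3595 CPM in PUS10KO, with 4 falling, 3 not passing the test and none at 0. Acta2 and Tagln made up most of that sum, and Cnn1, one of the 3, had means of 16.3 ± 13.3 CPM in control and 44.9 ± 12.1 CPM in PUS10KO, higher in all 4 numbers (log2 change 1.46 ± 0.58 SE, adjusted p = 0.146, or 0.00597 with the block). Acta1, the skeletal muscle actin gene, went from 55.2 ± 65.4 to 1.39 ± 0.728 CPM (mean ± SD, n = 4 libraries each, as in all such pairs below), while Des had means of 1.26 ± 0.402 CPM in control and 1.08 ± 0.229 CPM in PUS10KO and the other 8 skeletal muscle markers listed were not analysed here. Of 10 neuronal markers 3 were measured (summed level 34.3 to 119 CPM in control and 23.8 to 67.9 CPM in PUS10KO), and Stmn2 fell among them. In bulk RNA, fewer cells of a type and less RNA per cell cannot be told apart.

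Channel genes moved in both directions, and the largest changes were in genes that were close to 0 in 1 genotype. In PUS10KO the sodium channel gene Scn3a, the two-pore potassium channel gene Kcnk10 and the inward rectifier gene Kcnj2 were higher, and the ryanodine receptor gene Ryr3, the inward rectifier gene Kcnj15, the TRP channel gene Trpc1 and the ATP-gated channel gene P2rx7 were lower. Kcnj2 was not close to 0 in control (mean 9.98 CPM). With 1 library left out, Kcnk10 kept its call in 3 of 8 fits and Kcnj2 in 1, the other genes just named in all 8. Smaller rises, of Cacng7, Orai2, Kcna4, Kcnab2 and Kcnk5, were also kept in all 8. Of the 75 genes 73 had enough counts to be tested; Trpm6 and Kcne4 did not. Among these 73, 11 rose, 10 fell and 52 did not pass (edgeR's quasi-likelihood test, adjusted p under 0.05 over all 11909 genes tested). Of all genes tested 5.9% rose and 7.11% fell, 13% in all. The 21 called channel genes were 28.8% of the 73. Both called and changed at least 2-fold were 18 of the 73, where 953 of the 11909 genes tested (8%) were. These counts describe the list only: 8 of the 73 (Kcnk5, Kcnk10, Cacna1h, Scn3a, Ryr1, Ryr3, Kcnj15 and P2rx7) had passed the filter on low counts through libraries of 1 genotype alone, and 6 of those 8 are among the 21. The median log2 change over the 73 was 0.022, against 0.0086 over all genes tested.

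**Figure D1:**
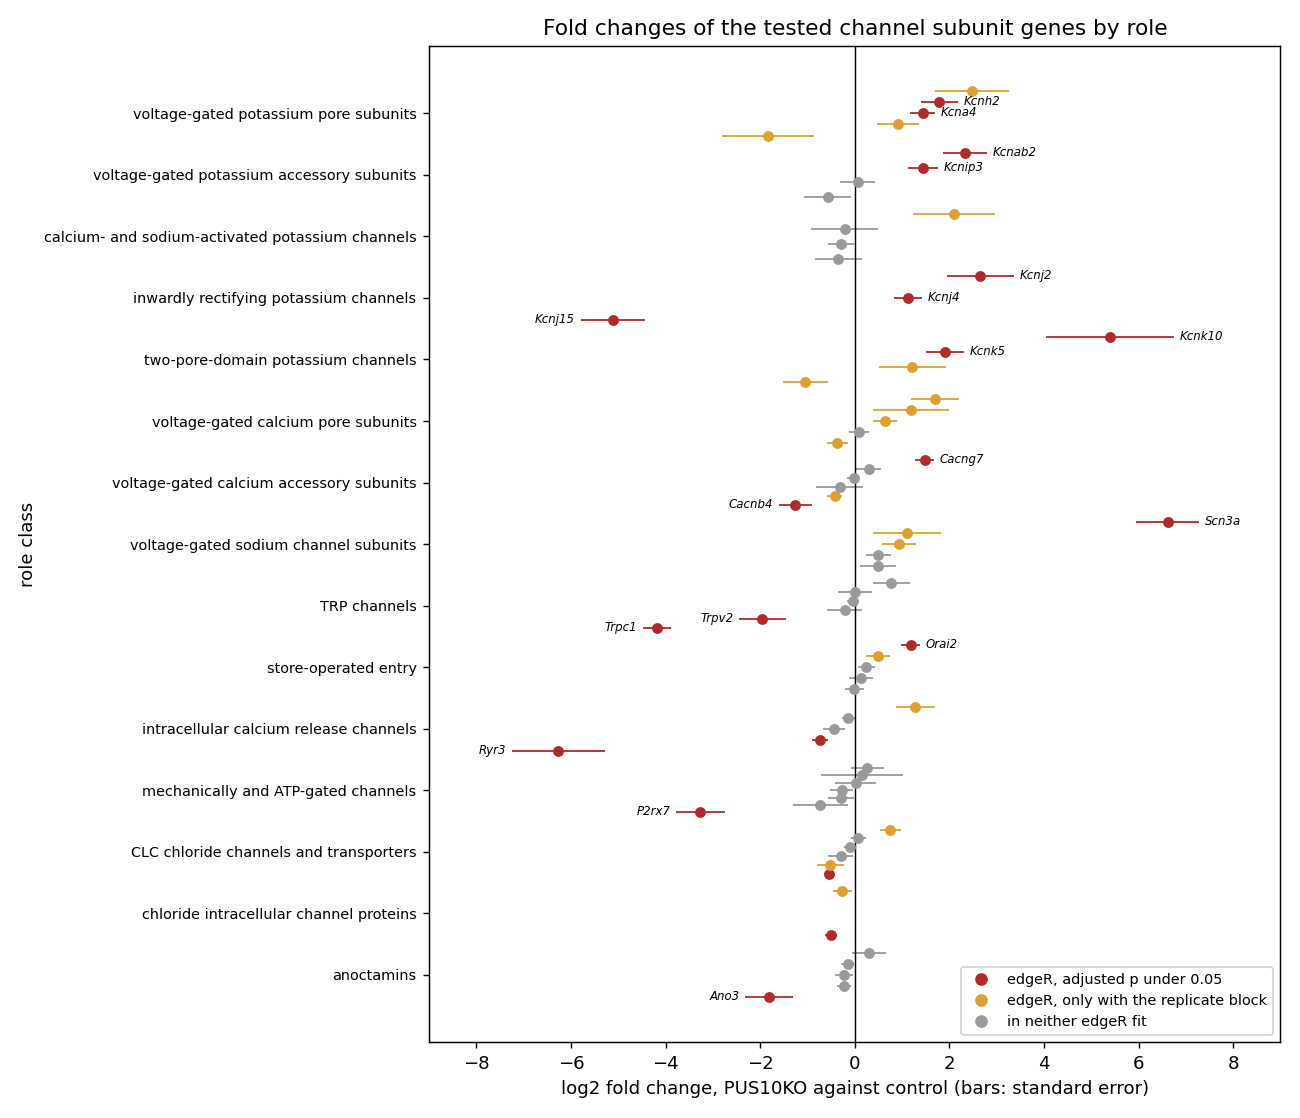
Log2 fold change of PUS10KO against control (x axis, bars are the standard error) for each tested channel gene, 1 row of points per role class (y axis). Red points passed edgeR's test, yellow points passed it only with the replicate block, and grey points in neither edgeR fit; red points lie on both sides of 0, from -6.27 (Ryr3) to 6.62 (Scn3a).

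Libraries of the same number resembled each other across genotypes, and a fit with the number as a block takes that shared part out of the error. No label states what a number shares, so the block rests on a resemblance seen in these same data. With this replicate block 23 channel genes rose and 16 fell, where 19.1% and 19.9% of all genes tested did, 39% in all. All 21 genes called without the block were called with it, and 18 more were called by edgeR only with it. DESeq2, fitted without the block, called 3 of these 18 (Clcn2, Cacna1h and Kcnq5), and limma voom 0. For 15 of the 73 genes every PUS10KO library was above every control library, and for 9 every PUS10KO library was below, where the shares over all genes tested were 9.7% and 10.6%, 20.3% in all. All 4 numbers gave the same direction in 29 genes that were higher in PUS10KO and in 22 that were lower of the 73, where 28.4% and 26.9% of all genes tested did so. By DESeq2 14 channel genes rose and 10 fell (9.39% and 10.5% of all genes, 19.9% in all), and by limma voom 10 and 8 (6.01% and 6.93%, 12.9% in all). Of the 21 called genes 20 had genotypes that did not overlap, all except Ano3. Calls and overlap were read from the same libraries, so this gives no separate support for the calls. Counts of the 75 genes ran from 57 to 63039 over all 8 libraries, and 22 genes had under 100 counts in every library. Small differences are harder to detect at such counts, and no detection limit was computed.

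**Figure D2:**
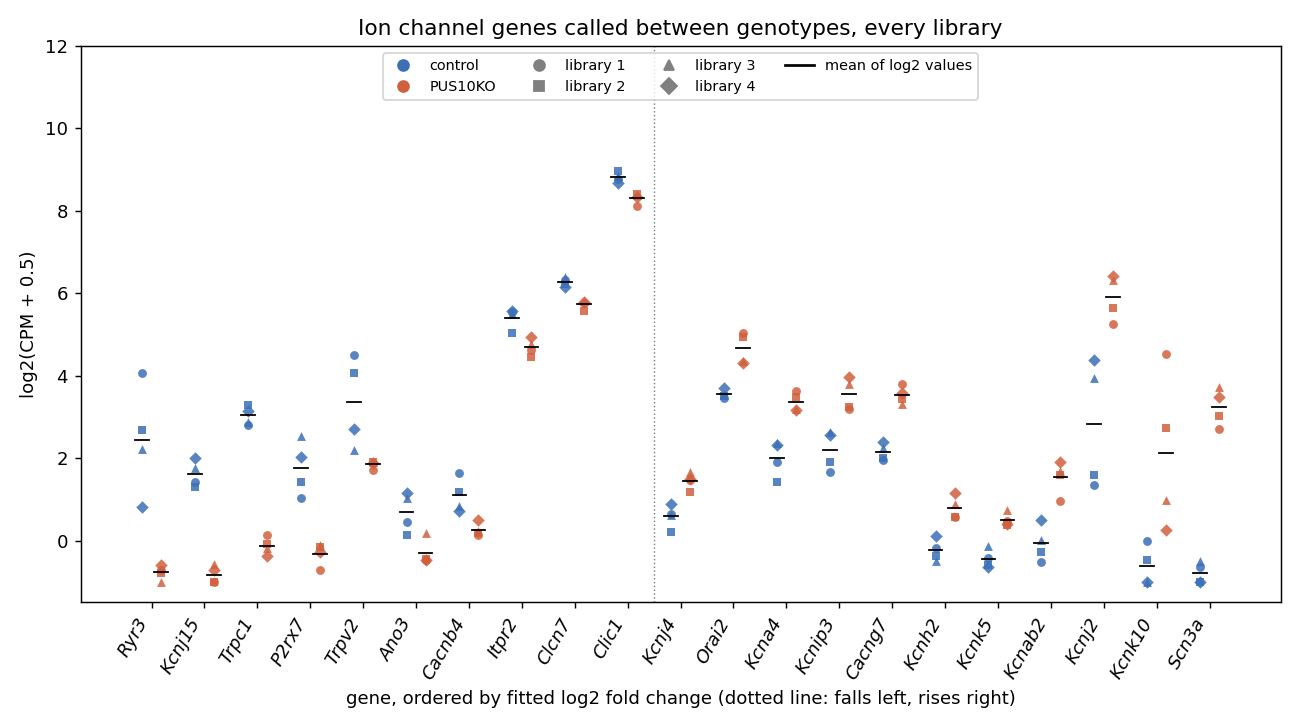
Level of the 21 called channel genes as log2(CPM + 0.5) (y axis) in every library, blue for control and red for PUS10KO, with a symbol for each library number and a black line at the mean. Genes left of the dotted line fell and genes right of it rose; the ranges of the genotypes overlap only in Ano3.

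The 5 voltage-gated potassium pore genes held 2 that rose, none that fell and 3 that did not pass (median log2 change 1.43). With the replicate block 4 rose and 1 fell. Kcna4 encodes a rapidly inactivating, A-type channel of the Shaker family. It had 3.26, 2.19, 4.69 and 4.501 CPM in control and 11.8, 10.6, 8.70 and 8.55 CPM in PUS10KO. Every PUS10KO library was above every control library (log2 change 1.43 ± 0.27 SE, adjusted p = 0.00816), a 2.71-fold difference of the means. Kcnh2, which encodes the hERG channel that repolarises the heart, had 0.389, 0.274, 0.206 and 0.575 CPM in control and 0.992, 0.994, 1.35 and 1.73 CPM in PUS10KO (log2 change 1.78 ± 0.39 SE, adjusted p = 0.0178). Its counts were low, 4 to 12 in control and 18 to 32 in PUS10KO libraries, and the call was lost when control 3 or PUS10KO 3 was left out (highest adjusted p 0.0519).

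The other 3 pore genes were called by edgeR only with the block, and Kcnq5 also by DESeq2 without it. Kcnq5, of the family that carries the M-current, had 2.34, 1.70, 0.670 and 0.766 CPM in control and 16.5, 9.35, 3.71 and 1.08 CPM in PUS10KO. The libraries numbered 1 and 2 were the higher ones in PUS10KO, and PUS10KO 4 lay within the range of control; the log2 change was 2.48 (0.78 SE, adjusted p = 0.071, or 0.00105 with the block), and adjusted p = 0.0219 without PUS10KO 4 and no block. Kcnf1, a subunit that is silent by itself and modifies other channels, had 10.5, 6.73, 2.68 and 0.910 CPM in control and 4.30, 1.03, 0.295 and 0.271 CPM in PUS10KO. It was higher in the libraries numbered 1 and 2 of each genotype than in those numbered 3 and 4, and lower in PUS10KO than in control within each number (log2 change -1.83 ± 0.97 SE, adjusted p = 0.272, or 0.00149 with the block). Kcnd1, another A-type channel gene, had a log2 change of 0.91 (0.44 SE, adjusted p = 0.227, or 0.00492 with the block), higher in PUS10KO in all 4 numbers.

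Of the 5 accessory genes of voltage-gated potassium channels 4 were tested, and 2 rose, none fell and 2 did not pass, with or without the block (median 0.75). Kcnab2 and Kcnab1 encode cytoplasmic beta subunits. Kcnab2 had 0.195, 0.328, 0.515 and 0.910 CPM in control and 1.43, 2.51, 2.74 and 3.25 CPM in PUS10KO (log2 change 2.33 ± 0.47 SE, adjusted p = 0.0125), with no overlap between genotypes. Kcnab1 was the most abundant of the class and spread widely within each genotype: it had 92.8, 127, 56.6 and 41.3 CPM in control and 109.5, 98.9, 71.8 and 50.7 CPM in PUS10KO (log2 change 0.061 ± 0.37 SE, adjusted p = 0.942). The third beta subunit gene, Kcnab3, had a log2 change of -0.57 (adjusted p = 0.518). Kcnip3 encodes a calcium-binding partner of A-type channels that also acts as a transcriptional repressor. It had 2.68, 3.23, 5.72 and 5.41 CPM in control and 8.65, 8.91, 13.4 and 15.2 CPM in PUS10KO (log2 change 1.44 ± 0.31 SE, adjusted p = 0.0173), and the call was lost without PUS10KO 3 (adjusted p = 0.0521). Kcne4, which encodes a small single-pass subunit, was not tested and had 8, 5, 12 and 20 counts in control and 0, 0, 6 and 6 in PUS10KO.

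None of the 4 calcium- and sodium-activated potassium channel genes passed edgeR's test without the block, by DESeq2 or by limma voom, 1 had an unadjusted p under 0.05, and 1 rose with the block. That gene was Kcnt2, which encodes a sodium-activated channel, with 0.341, 0.274, 1.55 and 3.40 CPM in control and 1.71, 2.47, 8.40 and 11.53 CPM in PUS10KO. The libraries numbered 3 and 4 held more than those numbered 1 and 2 in both genotypes, and PUS10KO was above control within each number (log2 change 2.10 ± 0.87 SE, adjusted p = 0.163, or 0.000216 with the block). Kcnn4, the intermediate-conductance channel known in proliferating fibroblasts, was the most abundant of them and had 19.1, 20.2, 20.3 and 13.1 CPM in control and 19.3, 19.3, 10.9 and 9.90 CPM in PUS10KO (log2 change -0.29 ± 0.26 SE, adjusted p = 0.537). Kcnn1, a small-conductance channel gene, had a log2 change of -0.35 (adjusted p = 0.706), and Kcnma1, the large-conductance channel gene, -0.21 (adjusted p = 0.891).

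All 3 inward rectifier genes measured were called, Kcnj2 and Kcnj4 as rises and Kcnj15 as a fall. Inward rectifiers hold the resting potential near the potassium equilibrium. Kcnj2 (Kir2.1; chr11:111066164-111076821, plus strand, GRCm38) had 2.04, 2.52, 14.99 and 20.3 CPM in control and 37.8, 49.2, 79.4 and 85.2 CPM in PUS10KO. Control libraries 1 and 2 were the lowest, control 3 and 4 stood between, and PUS10KO 3 and 4 were the highest (log2 change 2.65 ± 0.71 SE, adjusted p = 0.0405, or 0.000407 with the block). Without any 1 library except control 4 the call was lost (highest adjusted p 0.0921, log2 change 2.31 to 3.28). Control 4 was 9.96-fold above control 1. Kcnj4 (Kir2.3) had 1.07, 0.657, 1.03 and 1.34 CPM in control and 2.26, 1.75, 2.66 and 2.33 CPM in PUS10KO (log2 change 1.12 ± 0.29 SE, adjusted p = 0.0357); its groups did not overlap, and its call was kept without control 4 or PUS10KO 2 and lost in the other 6 fits (highest adjusted p 0.106). Kcnj15 (Kir4.2; chr16:95257558-95300260, plus strand) had 45, 36, 56 and 73 counts in control and 0, 0, 4 and 2 in PUS10KO. Its means went from 2.64 ± 0.693 to 0.0693 ± 0.0837 CPM (log2 change -5.12 ± 0.68 SE, adjusted p = 0.00171), and the call held whichever library was left out.

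Among the 4 two-pore-domain potassium channel genes, whose products carry background leak current, 2 rose, none fell and 2 did not pass; with the block 3 rose and 1 fell. Kcnk10 (TREK-2, opened by stretch and lipids; chr12:98429437-98578310, minus strand) had 10, 4, 0 and 0 counts in control and 411, 154, 35 and 13 in PUS10KO. In CPM this was 0.487, 0.219, 0 and 0 in control and 22.6, 6.13, 1.48 and 0.704 in PUS10KO, so PUS10KO 1 alone held most of the signal (log2 change 5.40 ± 1.36 SE, adjusted p = 0.0312, or 1.48e-05 with the block). The call was kept without control 1, PUS10KO 3 or PUS10KO 4 and lost in the other 5 fits (highest adjusted p 0.0792, log2 change 3.94 to 6.69). Kcnk5 (TASK-2) had 3 to 8 counts in control and 15 to 28 in PUS10KO libraries (log2 change 1.91 ± 0.40 SE, adjusted p = 0.014). Kcnk2 (TREK-1), a close relative of Kcnk10, had 1.61, 2.08, 1.08 and 1.10 CPM in control and 1.16, 0.994, 0.295 and 0.379 CPM in PUS10KO. It was lower in PUS10KO within each number (log2 change -1.05 ± 0.48 SE, adjusted p = 0.206, or 0.0186 with the block), the opposite direction to Kcnk10. Kcnk6 (TWIK-2) had a log2 change of 1.22 (0.71 SE, adjusted p = 0.318, or 0.0443 with the block).

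Start regions are shown for the 4 potassium and TRP channel genes with the widest differences for which RefSeq gave one, since the deposited counts do not say which start was used. Each runs from 250 bases before to 50 after the annotated start on GRCm38.p6, in lower case, with every CpG, the dinucleotide that DNA methylation acts on, in capitals.
Kcnj2 (chr11:111065914-111066213, plus strand): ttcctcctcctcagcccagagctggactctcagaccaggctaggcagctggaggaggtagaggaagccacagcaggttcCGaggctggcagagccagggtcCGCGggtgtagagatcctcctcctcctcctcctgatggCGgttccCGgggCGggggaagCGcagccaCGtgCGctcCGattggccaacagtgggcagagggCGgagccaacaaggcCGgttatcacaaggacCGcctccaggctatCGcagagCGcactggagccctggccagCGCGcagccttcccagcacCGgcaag
Kcnk10 (chr12:98578164-98578463, minus strand): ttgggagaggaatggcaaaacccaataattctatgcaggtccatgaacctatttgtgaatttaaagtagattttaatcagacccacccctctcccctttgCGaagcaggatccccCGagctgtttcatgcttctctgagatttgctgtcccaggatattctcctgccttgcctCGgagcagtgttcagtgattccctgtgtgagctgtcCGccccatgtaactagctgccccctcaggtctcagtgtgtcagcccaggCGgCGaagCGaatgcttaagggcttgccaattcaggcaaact
Kcnj15 (chr16:95257308-95257607, plus strand): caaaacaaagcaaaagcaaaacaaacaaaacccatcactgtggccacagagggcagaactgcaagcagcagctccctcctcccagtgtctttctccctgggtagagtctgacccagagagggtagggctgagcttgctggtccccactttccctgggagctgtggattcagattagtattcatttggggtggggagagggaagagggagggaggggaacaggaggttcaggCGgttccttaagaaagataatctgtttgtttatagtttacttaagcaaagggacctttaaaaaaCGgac
Trpc1 (chr9:95750299-95750598, minus strand): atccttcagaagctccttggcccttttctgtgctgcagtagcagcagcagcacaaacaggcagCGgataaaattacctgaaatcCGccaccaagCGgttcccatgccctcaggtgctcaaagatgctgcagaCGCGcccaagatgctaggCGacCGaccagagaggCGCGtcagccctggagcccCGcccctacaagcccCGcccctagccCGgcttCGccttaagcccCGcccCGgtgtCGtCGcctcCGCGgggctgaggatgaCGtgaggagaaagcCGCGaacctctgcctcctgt
Kcnk10 has 2 annotated starts, and the upstream one is printed. The windows held 18 CpGs for Kcnj2, 7 for Kcnk10, 2 for Kcnj15 and 22 for Trpc1. The median was 18 over the 59 of the 75 genes with a window and 21 over 9717 genes of the count table. Kcnj15 and Trpc1 were both close to 0 in PUS10KO, and their windows differed in CpG content. The TATA motif TATAAA, searched on both strands, occurred in the window of Kcnj15 and not in the other 3, where 6.86% of the windows of the count table hold it. In Kcnj15 the match was on the strand opposite to the gene. It lay within the 50 bases after the annotated start, not before it. The GC box GGGCGG, likewise searched on both strands, occurred in those of Kcnj2, Kcnk10 and Trpc1, where 66.0% hold it. The 10 genes that rose and have a window had a median of 19.5 CpGs, the 9 that fell 14, and the 40 others 18.5. These are descriptions of letters in a window, and methylation was not measured here.

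No voltage-gated calcium pore gene of the 5 measured passed edgeR's test without the block; 2 had an unadjusted p under 0.05, DESeq2 called 1, limma voom called none, and with the block 3 rose and 1 fell. Cacna1c, the L-type pore of muscle and fibroblasts, had 33.9, 28.5, 24.8 and 17.6 CPM in control and 55.6, 45.9, 30.3 and 32.3 CPM in PUS10KO. PUS10KO was higher within each number, and the genotypes overlapped, as control 1 lay above PUS10KO 3 and 4 (log2 change 0.65 ± 0.25 SE, adjusted p = 0.143, or 0.00264 with the block). Cacna1b, the N-type pore gene, was higher in libraries 3 and 4 of both genotypes and had 1.51, 0.711, 4.12 and 4.21 CPM in control and 1.27, 1.71, 9.41 and 11.9 CPM in PUS10KO (log2 change 1.19 ± 0.80 SE, adjusted p = 0.394, or 0.0184 with the block). The T-type genes were Cacna1h, with 1 to 8 counts in control and 12 to 22 in PUS10KO libraries (log2 change 1.70 ± 0.51 SE, adjusted p = 0.0638, or 0.0288 with the block, and called by DESeq2 without it), and Cacna1g, with means of 26.1 ± 2.64 CPM in control and 27.7 ± 7.62 CPM in PUS10KO (log2 change 0.082, adjusted p = 0.852). Cacna1a, the P/Q-type pore gene, was lower in PUS10KO in all 4 numbers (log2 change -0.37 ± 0.22 SE, adjusted p = 0.331, or 0.0167 with the block).

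In the 6 accessory calcium channel genes 1 rose, 1 fell and 4 did not pass (with the block 1 rose and 2 fell). Cacng7 (chr7:3332955-3368221, plus strand) encodes a gamma subunit that also accompanies AMPA receptors in neurons. It had 3.41, 3.50, 4.28 and 4.79 CPM in control and 13.4, 10.3, 9.37 and 11.53 CPM in PUS10KO. The lowest PUS10KO library was above the highest control library (log2 change 1.48 ± 0.20 SE, adjusted p = 0.00172), and the call held whichever library was left out. Cacnb4, a beta subunit gene, had 2.63, 1.75, 1.29 and 1.15 CPM in control and 0.606, 0.636, 0.675 and 0.920 CPM in PUS10KO (log2 change -1.26 ± 0.35 SE, adjusted p = 0.0444); the call was kept only without control 4, with adjusted p up to 0.117 in the other 7 fits, and 15.99% of its exon length overlaps a transcript of the opposite strand. The abundant beta subunit gene Cacnb3 had a log2 change of -0.024 (adjusted p = 0.937), and Cacna2d1, the alpha2delta subunit that brings pores to the membrane, -0.42 (0.16 SE, adjusted p = 0.13, or 0.00442 with the block). Cacnb2 stood out in 1 library, with 7.59 CPM in control 1 and 1.59 to 2.86 CPM in the other 7.

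Of the 5 sodium channel genes measured 1 rose, none fell and 4 did not pass, and with the block 3 rose and none fell (median log2 change 0.93). Scn3a encodes the pore Nav1.3, best known from embryonic neurons (chr2:65457118-65567627, minus strand). It had 3, 0, 4 and 0 counts in control and 109, 191, 302 and 197 in PUS10KO, or 0.146, 0, 0.206 and 0 CPM against 6.004, 7.60, 12.7 and 10.7 CPM (log2 change 6.62 ± 0.67 SE, adjusted p = 0.000494). The call held whichever library was left out. Of the neuronal markers Tubb3 had means of 33.4 ± 11.9 CPM in control and 34.3 ± 9.29 CPM in PUS10KO. Map2 had means of 33.8 ± 20.9 CPM in control and 13.2 ± 12.8 CPM in PUS10KO, and neither passed the test. Stmn2 fell from 7.43 ± 4.0 to 0.118 ± 0.113 CPM; 7 others, Snap25 and Elavl4 among them, were not analysed here. Their part in the result was not tested. Scn2a, a neighbour of Scn3a on chromosome 2, had 4.33, 4.71, 6.80 and 7.33 CPM in control and 3.80, 5.93, 10.9 and 11.9 CPM in PUS10KO (log2 change 0.49 ± 0.37 SE, adjusted p = 0.454). Scn3b, a beta subunit gene, had a log2 change of 0.50 (SE 0.27, adjusted p = 0.288). Scn7a, a channel that senses sodium rather than voltage, had a log2 change of 1.10 (0.72 SE, adjusted p = 0.378, or 0.0232 with the block).

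Of the 7 TRP channel genes 6 were tested, and 2 fell, none rose and 4 did not pass, with or without the block. Trpc1 (canonical TRP channel linked to receptor- and store-operated entry; chr9:95705082-95750375, minus strand) had 6.52, 9.30, 6.90 and 8.38 CPM in control and 0.606, 0.438, 0.380 and 0.271 CPM in PUS10KO. The PUS10KO libraries held 5 to 11 counts each against 134 to 175 in control, 18.4-fold lower by the means (log2 change -4.18 ± 0.29 SE, adjusted p = 7.79e-05), and the log2 change ran from -4.38 to -4.03 with 1 library left out. Trpv2, a TRP channel of the vanilloid family, had 22.05, 16.2, 4.07 and 6.03 CPM in control and 2.75, 3.26, 3.25 and 3.19 CPM in PUS10KO. The PUS10KO values lay close together, while control 1 and 2 were well above control 3 and 4 (log2 change -1.95 ± 0.50 SE, adjusted p = 0.0336). Its call was kept without control 3 or control 4 and lost in the other 6 fits (highest adjusted p 0.0838). Trpm7, a magnesium-permeable channel fused to a kinase, was the most abundant TRP gene per exon length and had means of 194 ± 19.4 CPM in control and 187 ± 19.5 CPM in PUS10KO (log2 change -0.048, adjusted p = 0.853). Trpm4, opened by calcium inside the cell, had means of 11.3 ± 3.91 CPM in control and 11.3 ± 4.60 CPM in PUS10KO (log2 change 3.6e-05, adjusted p = 1); its values were higher in libraries 3 and 4 than in 1 and 2 in both genotypes. Trpv4 and Trpm3 had fewer than 31 counts in every library and did not pass (adjusted p = 0.258 and 0.765). Trpc4ap had a log2 change of 0.16 (adjusted p = 0.487).

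All 5 genes of store-operated entry were measured, and Orai2 rose, none fell and 4 did not pass. Orai2 (chr5:136147459-136170713, minus strand) had 10.5, 10.9, 11.1 and 12.5 CPM in control and 32.6, 30.2, 19.9 and 19.2 CPM in PUS10KO. Control was even, and every PUS10KO library was above it (log2 change 1.18 ± 0.20 SE, adjusted p = 0.00572), with the call held whichever library was left out. Orai1, the founding pore of the family, had 11.0, 8.54, 6.03 and 6.46 CPM in control and 11.9, 8.71, 7.26 and 7.20 CPM in PUS10KO (log2 change 0.13 ± 0.26 SE, adjusted p = 0.797). Orai3 had 22.0, 18.9, 32.4 and 32.5 CPM in control and 26.4, 22.5, 25.8 and 30.04 CPM in PUS10KO (log2 change -0.016 ± 0.20 SE, adjusted p = 0.973), and its sign changed with the block and by limma voom. The sensor genes Stim1 and Stim2 had log2 changes of 0.49 (0.26 SE, adjusted p = 0.268, or 0.0193 with the block) and 0.24 (0.17 SE, adjusted p = 0.43, or 0.137 with the block). Stim1 had 33.8 CPM in control 1 and 14.9 to 19.5 CPM in the other control libraries, against 35.6, 26.4, 27.8 and 29.4 CPM in PUS10KO, and without control 1 and without the block its adjusted p was 0.0148. In CPM per kilobase of exon, Orai3 had 12.4 ± 3.29 in control and 12.2 ± 1.44 in PUS10KO. Orai1 had 3.49 ± 0.992 in control and 3.82 ± 0.959 in PUS10KO, and Orai2 had 1.85 ± 0.148 in control and 4.19 ± 1.13 in PUS10KO. Orai3 was thus the highest of the 3 in both genotypes on that scale. Orai2 was the lowest in control, and in PUS10KO it lay within the spread of Orai1.

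The 5 calcium release channel genes held 2 that fell, none that rose and 3 that did not pass (with the block 1 rose and 2 fell). Ryr3 (chr2:112631355-113217096, minus strand), a ryanodine receptor gene found in many tissues at low level, had 332, 109, 81 and 26 counts in control and 2, 2, 0 and 3 in PUS10KO. Control 1 was thus 12.98-fold above control 4 in CPM (16.2, 5.96, 4.17 and 1.24), and even control 4 was above every PUS10KO library (log2 change -6.27 ± 0.98 SE, adjusted p = 0.0037). Ryr1, the skeletal muscle receptor gene, had very low counts, 3 to 10 in control and 12 to 19 in PUS10KO, with no overlap (log2 change 1.28 ± 0.42 SE, adjusted p = 0.0816, or 0.0209 with the block). Itpr2, of the inositol trisphosphate receptors, had 46.2, 32.1, 44.4 and 47.1 CPM in control and 23.96, 21.2, 26.7 and 30.4 CPM in PUS10KO (log2 change -0.73 ± 0.17 SE, adjusted p = 0.0209); its call was kept without control 2 or PUS10KO 4 and lost in the other 6 fits (highest adjusted p 0.0613). Itpr1 had a log2 change of -0.14 (adjusted p = 0.595), and Itpr3 -0.44 (adjusted p = 0.279, or 0.0482 without control 4). Of the smooth muscle markers 4 of 7 fell, and of the skeletal 1 of 2: Acta2 went from 10025 ± 5222 to 2248 ± 161 CPM, Tagln from 3368 ± 1798 to 733 ± 253 CPM and Myh11 from 22.2 ± 29.1 to 0.465 ± 0.130 CPM. Cnn1, as given above, was higher in PUS10KO. The part of such cells or states in the fall of Ryr3 was not tested.

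Stretch-gated and ATP-gated channel genes were 7, of which 1 fell, none rose and 6 did not pass, with or without the block. P2rx7 (chr5:122643911-122691432, plus strand), a receptor for high ATP that triggers inflammasome signalling in immune cells, had 1.56, 2.19, 5.25 and 3.54 CPM in control and 0.110, 0.398, 0.422 and 0.325 CPM in PUS10KO. In counts this was 32 to 102 against 2 to 10 (log2 change -3.27 ± 0.51 SE, adjusted p = 0.00375), and the call held whichever library was left out. The listed immune markers measured were at 7.55 to 12.4 CPM in sum in control and 13.8 to 20.2 CPM in PUS10KO. Of the 4, Cd14 rose, from 3.09 ± 0.862 to 12.8 ± 3.37 CPM, while Lyz2 (means of 2.94 ± 1.04 CPM in control and 1.19 ± 0.824 CPM in PUS10KO), Cd68 (means of 2.43 ± 0.708 CPM in control and 1.88 ± 0.428 CPM in PUS10KO) and Csf1r (means of 1.44 ± 1.20 CPM in control and 1.16 ± 1.27 CPM in PUS10KO) had lower means in PUS10KO and did not pass. Ptprc was not analysed here, and the part of immune cells in the result was not tested. P2rx4, the more abundant receptor gene, had means of 53.2 ± 11.2 CPM in control and 43.8 ± 12.5 CPM in PUS10KO (log2 change -0.28 ± 0.24 SE, adjusted p = 0.517), and P2rx3, P2rx5 and P2rx6 had log2 changes of -0.74, 0.022 and 0.15 (adjusted p = 0.474, 0.982 and 0.941). Piezo1, the stretch-gated channel gene, had 248, 183, 154 and 94.4 CPM in control and 174, 151, 119 and 109 CPM in PUS10KO (log2 change -0.30 ± 0.28 SE, adjusted p = 0.555); 24.6% of its exon length overlaps Ctu2 on the opposite strand, from which its counts may not be separate. Piezo2 had 16.7, 23.04, 24.6 and 37.1 CPM in control and 22.9, 23.1, 22.04 and 53.7 CPM in PUS10KO (log2 change 0.26 ± 0.35 SE, adjusted p = 0.691), with PUS10KO 4 above the other 7 libraries.

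Among the 6 genes of CLC chloride channels and transporters 1 fell, none rose and 5 did not pass (with the block 1 rose and 2 fell). Clcn7, the lysosomal chloride-proton exchanger, had 78.8, 74.5, 84.1 and 70.8 CPM in control and 53.7, 46.6, 55.5 and 54.7 CPM in PUS10KO, with all PUS10KO libraries below control (log2 change -0.55 ± 0.11 SE, adjusted p = 0.0124). The gene of its beta subunit, Ostm1, also fell, from 60.8 ± 12.9 to 31.7 ± 5.06 CPM (log2 change -0.94 ± 0.18 SE, adjusted p = 0.0106). Clcn2, a channel of the plasma membrane, had 4.14, 4.16, 6.65 and 5.46 CPM in control and 9.58, 6.72, 8.49 and 9.52 CPM in PUS10KO. Its genotypes did not overlap, and the log2 change was 0.75 (0.22 SE, adjusted p = 0.059, or 0.0083 with the block); without control 3 and without the block the adjusted p was 0.0473, and DESeq2 called Clcn2 without the block. Of the endosomal exchangers Clcn3 had a log2 change of -0.52 (0.29 SE, adjusted p = 0.294, or 0.0251 with the block), Clcn4 0.071, Clcn5 -0.11 and Clcn6 -0.30 (adjusted p = 0.823, 0.633 and 0.538).

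Clic1 and Clic4, whose soluble products can insert into membranes, had the highest levels of all channel-like genes. Clic1 had 435, 498, 462 and 410.2 CPM in control and 278, 339, 335 and 322 CPM in PUS10KO (log2 change -0.50 ± 0.12 SE, adjusted p = 0.0258). The genotypes did not overlap, but the call was lost without control 2, control 3, PUS10KO 1, PUS10KO 3 or PUS10KO 4 (highest adjusted p 0.0703). Clic4 had 492, 316, 291 and 297 CPM in control and 363, 271, 261 and 266 CPM in PUS10KO, lower in PUS10KO within each number by a little (log2 change -0.27 ± 0.20 SE, adjusted p = 0.454, or 0.0444 with the block). The 5 anoctamin genes held 1 that fell, none that rose and 4 that did not pass, with or without the block. Ano3 had 11 to 36 counts in control and 4 to 15 in PUS10KO libraries (log2 change -1.82 ± 0.50 SE, adjusted p = 0.046); the call was kept without control 2 or PUS10KO 3 and lost in the other 6 fits (highest adjusted p 0.117). Ano6, a phospholipid scramblase, had means of 214 ± 35.1 CPM in control and 193 ± 7.47 CPM in PUS10KO and a log2 change of -0.15, Ano10 -0.24, Ano8 -0.23 and the calcium-activated chloride channel gene Ano1 0.30 (adjusted p = 0.529, 0.361, 0.493 and 0.655).

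**Figure D3:**
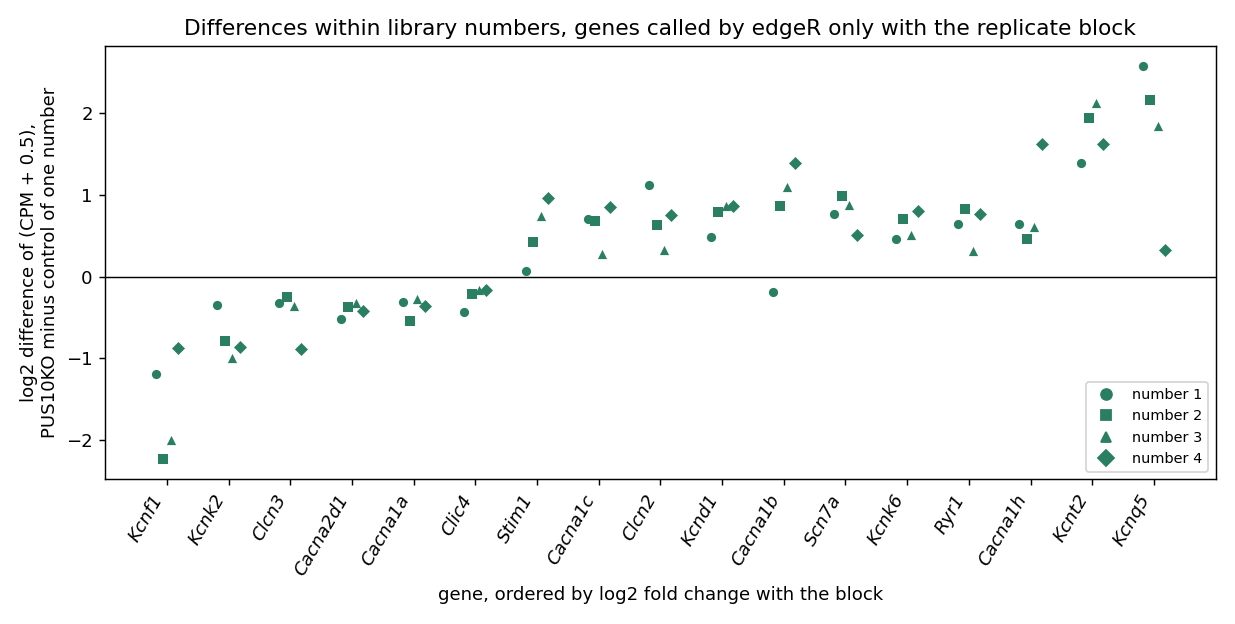
Difference of log2(CPM + 0.5) between PUS10KO and control of the same number (y axis) for 17 of the 18 channel genes called by edgeR only with the replicate block (x axis), with a symbol for each number. In 16 of these 17 all 4 numbers lie on the same side of 0; Cacna1b has number 1 below 0 and the other 3 above.

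Levels between genes are compared in CPM per kilobase of exon. Clic1 had 251 ± 21.1 in control and 177 ± 15.6 in PUS10KO, and Clic4 53.1 ± 14.6 in control and 44.2 ± 7.44 in PUS10KO. Cacnb3 (19.2 ± 2.77 in control and 18.9 ± 1.62 in PUS10KO), Trpm7 (17.1 ± 1.71 in control and 16.6 ± 1.73 in PUS10KO), Ano6 (17.4 ± 2.86 in control and 15.7 ± 0.609 in PUS10KO) and Piezo1 (17.1 ± 6.43 in control and 13.9 ± 2.98 in PUS10KO) followed, within each other's spread in control. Kcnj2 had 1.83 ± 1.68 in control and 11.6 ± 4.22 in PUS10KO, which placed it among the 20 genes of the plot of levels per length. By contrast Scn3a (0.00706 ± 0.00839 in control and 0.743 ± 0.243 in PUS10KO), Trpc1 (0.968 ± 0.161 in control and 0.0527 ± 0.0174 in PUS10KO) and Ryr3 (0.363 ± 0.342 in control and 0.00464 ± 0.00358 in PUS10KO) were low on this scale in the genotype where they were higher. Together the 75 genes made up 2510 to 3082 CPM in control and 2426 to 2620 CPM in PUS10KO libraries.

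**Figure D4:**
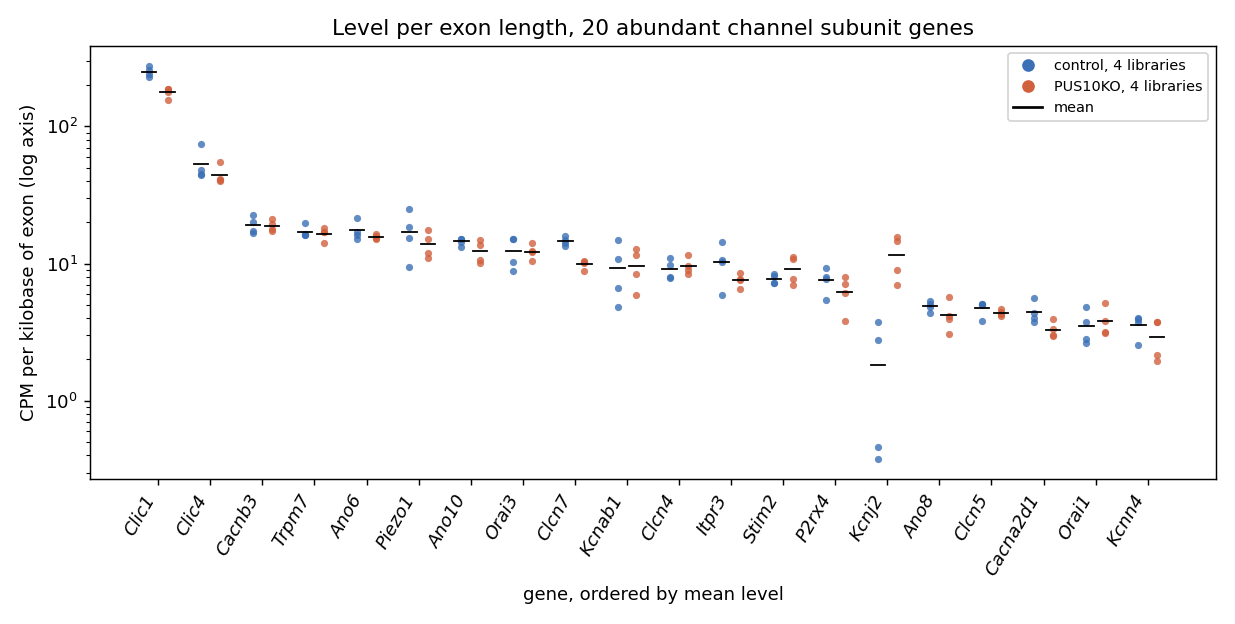
CPM per kilobase of exon (y axis, log scale) of 20 channel subunit genes with high means over both genotypes (x axis), with points for the 4 libraries of each genotype and a line at the mean. Clic1 and Clic4 lie above all others, and Kcnj2 has the widest gap between genotypes.

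Other ion transport genes, listed by role and outside the symbol rule, were counted beside the channels: of 87 tested 7 rose, 13 fell and 67 did not pass, with 12 and 29 under the replicate block (shares over all genes as above). Among the partners of store and release channels 1 of 18 rose and 5 fell. Jph1 and Jph2, the junctophilins that hold the plasma membrane next to calcium stores, went from 4.89 ± 4.04 to 0.157 ± 0.0790 CPM (log2 change -4.94 ± 0.68 SE, adjusted p = 0.002) and from 123 ± 99.2 to 6.24 ± 1.94 CPM (log2 change -4.31 ± 0.60 SE, adjusted p = 0.00217). Jph1 was below the filter's cutoff of 0.497 CPM in every PUS10KO library, so it was tested through control libraries alone. Esyt1, a tether of the endoplasmic reticulum, went from 213 ± 18.5 to 81.6 ± 20.9 CPM (log2 change -1.38 ± 0.19 SE, adjusted p = 0.00188). Of 8 calcium pumps, exchangers and buffers 3 fell: Slc8b1, the mitochondrial sodium-calcium exchanger, from 11.01 ± 1.60 to 4.57 ± 1.02 CPM, Slc8a1, that of the plasma membrane, from 29.8 ± 8.76 to 14.1 ± 2.32 CPM, and the plasma membrane pump gene Atp2b1 from 198 ± 32.99 to 106 ± 21.3 CPM (adjusted p = 0.00475, 0.013 and 0.0112). In the list of the mitochondrial uniporter 2 of 10 genes fell and none rose; Mcu, the pore, went from 75.5 ± 6.34 to 40.2 ± 4.58 CPM (log2 change -0.91 ± 0.12 SE, adjusted p = 0.00195).

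In the list of calcineurin, NFAT and calmodulin 2 of 18 rose and 1 fell. The kinase genes Camkk2 and Camkk1 rose (log2 change 0.74 and 0.63, adjusted p = 0.0157 and 0.026). The call of Camkk1 was kept in 3 of 8 fits that left out 1 library. In the list of other chloride and volume-regulated channels, which holds the subunit gene Ostm1 as well, 10 genes were tested. Ttyh2 rose (log2 change 1.00, adjusted p = 0.00562) and Ostm1 fell. In the list of other cation channels, which also holds the pannexins, 3 of 18 genes rose and 1 fell. Pkd2, the polycystin-2 channel gene, went from 108 ± 10.7 to 162 ± 15.9 CPM and Hcn3, of the pacemaker channels, from 0.251 ± 0.0640 to 0.802 ± 0.173 CPM (adjusted p = 0.0141 and 0.0146). Hcn3 was below the filter's cutoff of 0.497 CPM in every control library, so it was tested through PUS10KO libraries alone. The counts of called partner genes include such genes. Panx1, of the pannexins, rose too (log2 change 0.64, adjusted p = 0.0253; named after its value was seen, and called in 4 of 8 fits that left out 1 library). Tpcn1, an endolysosomal channel gene, fell from 14.1 ± 3.81 to 6.36 ± 1.11 CPM (adjusted p = 0.0146). The 5 sodium-potassium pump genes held no call by edgeR's test without the block (1 rose and 2 fell with it), with 0 at an unadjusted p under 0.05 and 0 by DESeq2 or limma voom. Atp1b3, a beta subunit gene, had means of 169 ± 43.5 CPM in control and 132 ± 30.6 CPM in PUS10KO (log2 change -0.36 ± 0.23 SE, adjusted p = 0.359, or 0.00679 with the block).

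Chromosomes differed in their median log2 change over all genes tested, from -0.60 on chromosome 12 and -0.25 on chromosome 10 to 0.20 on the X chromosome. Atp2b1, Esyt1, Mcu and Ostm1 lie on chromosome 10, and less that median their log2 changes were -0.65, -1.13, -0.66 and -0.69. Of the channel genes Kcnk10 and Kcnf1 lie on chromosome 12 and had 6.004 and -1.23 less that median. For Clic1 and Clcn7, on chromosome 17 (median -0.13), the remainder was -0.37 and -0.42, and for Itpr2, on chromosome 6 (median -0.18), -0.55. What set the chromosome medians was not tested.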

How the data were processed

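RNA was sequenced as stranded, paired-end total RNA libraries, per the labels' protocols. The authors deposited whole-number counts per gene, and a normalized table whose values look like log2 values, a scale that no source states. STAR 2.7.8a, DESeq2 and mm10 appear in the submitters' processing notes. Read counter, strand setting and annotation: not given in the sources used here. Overlapping genes may share reads. In 5 channel genes more than 10% of the exon length overlapped a gene of the opposite strand. Besides Piezo1 and Cacnb4 these were P2rx6 (13.9%), Kcnk2 (12.2%) and Clcn4 (11.5%). Counts were fitted in R 4.3.3 with edgeR 4.0.16 (filterByExpr, TMM, robust quasi-likelihood test, genotype as the only term, Benjamini-Hochberg adjustment over 11909 genes, threshold 0.05). The test was also run on counts simulated from the means and dispersions of that fit. Alternatives were DESeq2 1.42.0, limma 3.58.1 (voom), RLE scaling, no filter, each library left out, a replicate block, and limma on the deposited log2 values with that block. Deviations of same-numbered libraries correlated across genes (r = 0.681, 0.722, 0.633 and 0.687 for numbers 1 to 4). The block and the differences within numbers therefore treat the numbers as pairs, which no label states. The main test, with genotype as the only term, does not use the numbers. Across numbers 3 and 4 the r values were 0.582 and 0.503, so these numbers are less clearly told apart than 1 and 2 (0.303 and 0.0416 at most). Every pair of same-genotype libraries differed by more than sampling noise (chi-square over degrees of freedom at least 18.3). Positions and exon lengths came from GENCODE M21, which matched all 75 symbols, and start regions from RefSeq. Genes, lists and roles were chosen with earlier results of these data known. Named were all called genes, every gene of store-operated entry, calcium release and Piezo, the 2 most abundant of each role, those with nearly no counts in 1 genotype, and up to 3 called partners a list; the remaining channel genes were named after their values were seen. Some genes of these lists are not reported here by name, and counts include them.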

Additional observations from a re-analysis of the deposited data

Results flagged for a closer look

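Each genotype of 74 channel genes and 16 other named genes was checked. In 11 of these 180 groups of 4 libraries, 1 library stood apart from the other 3 of its genotype by Dixon's criterion (gap to the nearest library over the range), where chance gives about 1 in 20. Clic4 was high in control 1 (492 CPM, the next library 316) and in PUS10KO 1 (363 CPM, the next 271). Piezo2 was high in PUS10KO 4 (53.7 CPM, the next 23.1). Trpm7 was high in control 4 (223 CPM, the next 186), and Kcnn4 was low there (13.1 CPM, the next 19.1). Ano3 was high in PUS10KO 3 (0.633 CPM, the next 0.239), and Jph1 was high in PUS10KO 1 (0.275 CPM, the next 0.127). Trpv2 was low in PUS10KO 1 (2.75 CPM, the next 3.19). Cacnb2 and Kcnab3 were high in control 1 (7.59 CPM, the next 2.15, and 2.77 CPM, the next 0.985). Clcn5 was low in control 2 (43.3 CPM, the next 57.1).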

How the results depend on the processing

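The replicate block moved the counts most: 2273 genes rose and 2368 fell, among them 23 and 16 channel genes and 12 and 29 partner genes. By DESeq2 1146 genes rose and 1287 fell. Leaving out 1 library gave 492 to 638 genes that rose and 520 to 728 that fell, 7 to 10 and 5 to 9 channel genes, 5 to 7 and 11 to 14 partner genes, and medians of the channel genes from -0.087 to 0.074. Of the 21 called channel genes 11 kept their call in all 8 of these fits and 10 lost it in some. RLE scaling and dropping the filter changed no call of a named gene, and limma voom lost 3: Cacnb4, Kcnk10 and Trpv2. Signs changed only in genes that passed in none of the fits concerned. Orai3 had a log2 fold change of 0.013 with the block, 0.013 with the deposited values and the block, and 0.0073 by limma voom. With 1 library left out, log2 fold changes ran from -0.039 to 0.26 for Cacna1g, -0.078 to 0.072 for Cacnb3, -0.027 to 0.18 for Clcn4, -0.14 to 0.38 for Kcnab1, -0.051 to 0.33 for Orai1, -0.15 to 0.11 for Orai3, -0.16 to 0.51 for Piezo2 and -0.091 to 0.039 for Trpm7. Channel genes named after their values were seen changed sign as well, among them Cacnb2 (-0.55 to 0.52), P2rx6 (-0.43 to 0.77) and Kcnma1 (-0.92 to 0.46). P2rx5 (-0.25 to 0.33) and Trpm4 (-0.23 to 0.21) did so too. Low counts limit, among others, Kcne4, Kcnh2, Kcnk5, Kcnk6, Ryr1, Cacna1h, Ano3, Hcn3, Kcnab2, Kcnj4 and Cacnb4. Kcnab2 had 4, 6, 10 and 19 counts in control.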
